A study of Rattus norvegicus with 23 samples.

Results

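The genes Slc2a1, Slc2a4 and Hk2, which bring glucose into the heart muscle cell and trap it there, were followed in the heart apex of 23 Lewis rats 6 weeks after kidney transplantation. They were chosen by identifier: the rows ENSRNOG00000007284 (Slc2a1), ENSRNOG00000017226 (Slc2a4) and ENSRNOG00000006116 (Hk2) of the gene count files, 3 of 26405 genes. All 3 passed the filter on low counts that 11568 genes passed. In hearts of recipients with chronic kidney disease (CKD), Slc2a1 was 1.26-fold higher and Hk2 0.668-fold as high as in healthy recipients, and Slc2a4 did not pass the test. Recipient disease nearly coincides with a prefix of the animal names, and neither result passed with that prefix as a covariate. The log2 change then went from 0.33 to 0.21 for Slc2a1 and from -0.58 to -1.02 for Hk2. Both of these estimates rest on the 2 CKD recipients that share the healthy recipients' prefix. The Slc2a1 result was also lost in 6 of the 23 fits that left out 1 library.

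Glucose enters cardiomyocytes through facilitative transporters. Slc2a1 encodes GLUT1, which sits in the plasma membrane without insulin, is prominent in the fetal heart and is also made by endothelial cells. Slc2a4 encodes GLUT4, the main transporter of the adult heart, which insulin or contraction moves from internal vesicles to the cell surface. Hk2 encodes hexokinase 2, the insulin-responsive hexokinase of muscle, which phosphorylates the glucose that has entered and so keeps it inside the cell.

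Kidneys from healthy or diseased donors were placed into healthy or diseased recipients. CKD had been brought about by coagulating branches of both renal arteries, which ablated part of the renal mass, followed by the nitric oxide synthase inhibitor L-NNA (200 mg/L in the water) and chow with 6% NaCl until proteinuria was 200 mg per 24 h. Diseased rats were taken into the experiment once proteinuria was 100 mg per 24 h with L-NNA and salt withdrawn, so the recipient effect includes these treatments and cannot be told apart from them. All 4 groups, healthy recipients included, underwent left orthotopic transplantation of a Lewis isograft with cold and warm ischemia of 30 minutes each, and lost the right native kidney 10 to 14 days later. Groups are abbreviated by donor and recipient: HD-HR (both healthy, n = 6), CD-HR (CKD donor, healthy recipient, n = 6), HD-CR (healthy donor, CKD recipient, n = 5) and CD-CR (both with CKD, n = 6). The sources used here give neither age nor sex.

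Each rat gave 1 library of polyadenylated RNA, with 7391929 to 12444980 reads counted in genes. Animal names in the deposit begin with 12 or 13, a prefix that the sources used here do not explain. All 12 healthy recipients carry the prefix 13, while 9 CKD recipients carry 12 and 2 (HD-CR5 and CD-CR5) carry 13, so prefix and recipient disease are nearly confounded. CD-CR1 stood apart from the other libraries by its correlation with them. Non-unique alignments per counted read averaged 0.29 on the log2 scale in CKD recipients and 1.24 in healthy recipients. Other genes of glucose metabolism and markers of cell types are not analysed here, because the reference table used carries 0 Ensembl rat identifiers, so the labelled tissue was not checked against its markers.

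Upstream sequence is shown for Slc2a1 and Hk2, from the RefSeq promoter table of build GRCr8. That table held no entry for Slc2a4. The reads had been counted on another build, Rnor_5.0, so these positions are not those of the counted gene models. Each run holds the 250 bases before the annotated transcription start, 5′ to 3′ on the gene's strand, and ends at the base before the start. Capitals mark matches, on either strand, to the GC box GGGCGG, to which Sp1-type factors bind, or to ACGTG, the core of the hypoxia response element. The Slc2a1 run spans chr5:138002272-138002521 on the plus strand and the Hk2 run chr4:116841276-116841525 on the minus strand.
Slc2a1: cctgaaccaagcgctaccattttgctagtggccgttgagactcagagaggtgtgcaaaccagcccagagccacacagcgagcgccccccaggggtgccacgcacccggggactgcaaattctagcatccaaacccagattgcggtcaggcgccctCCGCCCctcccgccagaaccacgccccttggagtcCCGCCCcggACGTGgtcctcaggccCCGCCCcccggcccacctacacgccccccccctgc
Hk2: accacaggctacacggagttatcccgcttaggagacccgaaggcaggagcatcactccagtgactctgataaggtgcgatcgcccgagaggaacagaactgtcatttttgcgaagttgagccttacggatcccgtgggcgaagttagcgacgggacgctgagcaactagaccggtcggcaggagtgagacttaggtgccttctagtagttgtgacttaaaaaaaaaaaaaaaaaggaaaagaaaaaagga

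The Slc2a1 window held 3 GC boxes, beginning 95, 60 and 35 bases before the start, and 1 ACGTG, beginning 51 bases before it. A GC box occurred in 30.5% and ACGTG in 16.6% of the 33469 windows of this length in the table. The Hk2 window held no match to either, nor did either window to the E-box CACGTG (5.59% of all windows), the CCAAT box CCAAT (34.0%) or the TATA box TATAAA (12.9%). ACGTG lies within CACGTG, so those searches overlap. GC content was 68.4% for Slc2a1 and 49.6% for Hk2, against a median of 51.2% over all windows. These matches describe the letters and not bound sites. In the same build no annotated gene overlapped Slc2a1, Slc2a4 or Hk2.

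Slc2a1, the insulin-independent transporter, was higher in CKD recipients. Levels are given as CPM, the gene's counts per 1000000 reads counted in the tested genes after TMM scaling. In HD-HR the 6 libraries stood at 12.8, 9.27, 9.26, 10.7, 8.97 and 14.3 CPM, and in CD-HR at 17.4, 13.7, 10.5, 12.7, 11.6 and 11.5 CPM. In HD-CR the 5 libraries stood at 13.8, 16.4, 15.1, 16.2 and 12.8 CPM, and in CD-CR the 6 stood at 16.1, 16.4, 14.3, 11.1, 14.8 and 17.4 CPM. Of the 11 CKD recipients 10 lay above the median of the healthy recipients (11.6 CPM). The ranges overlapped, because CD-HR1 was nearly as high as the highest CKD recipient (CD-CR6) and CD-CR4 lay below the healthy median.

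By mean, HD-HR came lowest (10.9 ± 2.22 CPM, SD, n = 6), followed by CD-HR (12.9 ± 2.44, n = 6), HD-CR (14.8 ± 1.55, n = 5) and CD-CR (15 ± 2.23, n = 6). Each step between neighbours was smaller than the larger SD of the pair. Averaged over both kinds of donor, CKD recipients exceeded healthy recipients by 0.33 ± 0.10 on the log2 scale (SE, 95% interval 0.12 to 0.54, adjusted p = 0.0322 by edgeR's quasi-likelihood test with Benjamini-Hochberg adjustment over all genes). Genes are called at an adjusted p under 0.05. In this comparison 2 of the 3 genes, Slc2a1 and Hk2, were called, where 12.8% of all genes tested were. The Slc2a1 call was lost in 6 of the 23 fits that left out 1 library (HD-HR3, HD-HR5, CD-HR4, CD-HR6, HD-CR4 or CD-CR2), in which the adjusted p lay between 0.0527 and 0.0650. It was also lost with non-unique alignments (log2 0.30, adjusted p = 0.103 by edgeR) or the animal prefix (0.21 ± 0.18, adjusted p = 0.558 by edgeR) as a covariate. The same held among libraries of prefix 13 alone (0.24), where HD-CR and CD-CR had 1 library each.

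**Figure D1:**
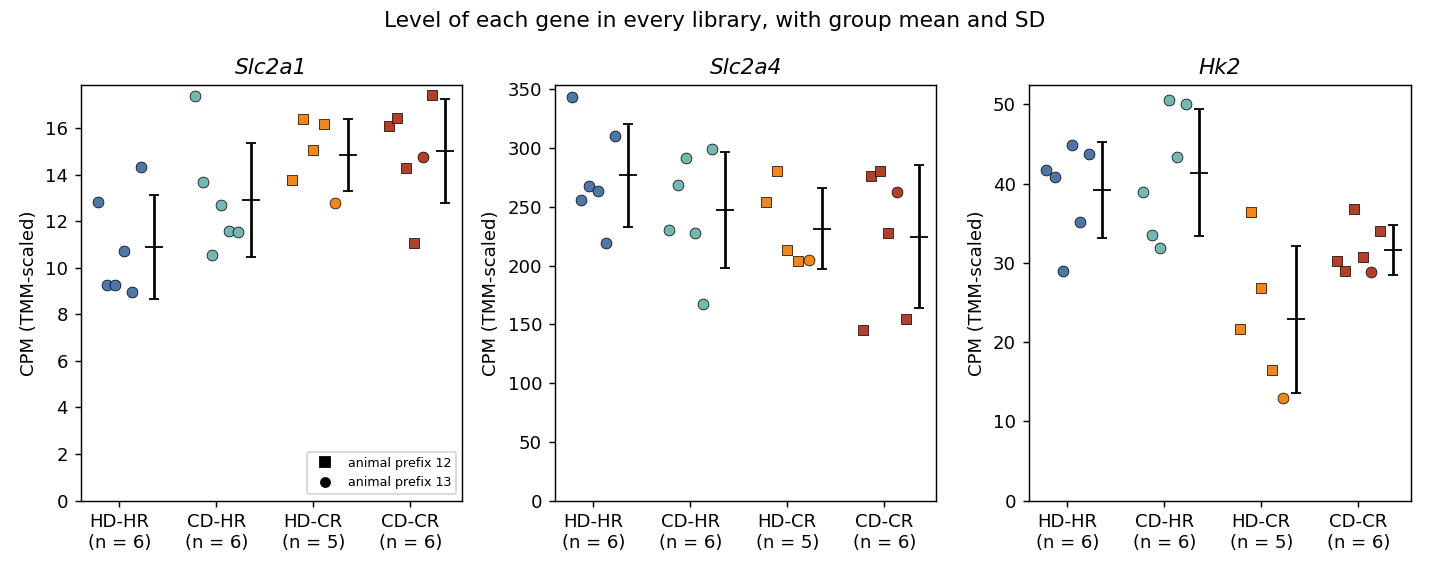
Level of Slc2a1, Slc2a4 and Hk2 in CPM (TMM-scaled, axes from 0) in each of the 23 libraries, by group, with squares for animal prefix 12, circles for prefix 13, and the mean and SD of the group as a black bar. Slc2a1 means run from 10.9 CPM in HD-HR to 15 in CD-CR, Slc2a4 overlaps in all groups, and Hk2 is lowest in HD-CR at 22.9 CPM with a wide spread.

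Slc2a1 had the fewest reads of the 3 genes, 70 to 199 per library, for which counting alone gives a relative error of 7.09 to 12%. The rats of a group differed by a coefficient of variation of 10.4 to 20.3%. The spread that edgeR fitted for Slc2a1 between rats, 15.6%, was close to the median of 15.8% for the 2248 genes within 0.5 log2 units of its level. In whole tissue, a change in the number of cells of a type and a change in the RNA per cell cannot be told apart, which holds for each result here.

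Hk2, which commits the entered glucose to metabolism, was lower in CKD recipients. In HD-HR the libraries stood at 41.8, 40.9, 28.9, 44.8, 35.1 and 43.7 CPM and in CD-HR at 39.0, 33.4, 31.9, 50.6, 43.4 and 50.1 CPM. In CD-CR they stood at 30.2, 28.9, 36.7, 30.7, 28.8 and 34.0 CPM, a narrow band at the lower edge of the healthy range. In HD-CR they stood at 21.7, 36.4, 26.8, 16.5 and 12.9 CPM, so that HD-CR4 and HD-CR5 were the lowest of all 23 libraries and HD-CR2 lay among the healthy recipients. All 11 CKD recipients lay below the median of the healthy recipients (41.3 CPM), though the ranges overlapped between 28.9 CPM (HD-HR3) and 36.7 CPM (CD-CR3).

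By mean Hk2 level, HD-CR came lowest (22.9 ± 9.24 CPM, SD, n = 5), then CD-CR (31.6 ± 3.16, n = 6). HD-HR followed at 39.2 ± 6.06 (n = 6), and CD-HR was highest at 41.4 ± 8.03 (n = 6). HD-CR and CD-CR differed by less than the SD of HD-CR, and HD-HR and CD-HR by less than either SD, while the step from CD-CR to HD-HR exceeded both SDs but did not pass its test (CKD in both against neither, adjusted p = 0.344 by edgeR). Averaged over donors, Hk2 fell by 0.58 ± 0.13 on the log2 scale in CKD recipients (0.668-fold, 95% interval 0.557 to 0.802, adjusted p = 0.00577 by edgeR). It ranked 228 of 11568 genes by p, and 92.3% of genes had a smaller change. The call held in all 23 fits that left out 1 library, with log2 changes of -0.69 to -0.51.

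Hk2 was also compared within a single prefix. HD-CR5 (12.9 CPM) and CD-CR5 (28.8 CPM), the CKD recipients of prefix 13, both lay below all 12 healthy recipients of that prefix, narrowly in the second case (28.9 CPM in HD-HR3). Among libraries of prefix 13 alone the log2 change was -1.03. With the prefix as a covariate it was -1.02 ± 0.24 (adjusted p = 0.0724 by edgeR). Neither passed, and both rest on those 2 rats, of which HD-CR5 is the lowest library of all. Within prefix 13 HD-CR and CD-CR had 1 library each, so the spread there was estimated from the healthy recipients. The 9 CKD recipients of prefix 12 averaged 29.1 ± 6.71 CPM (SD), against 40.3 ± 6.88 in the 12 healthy recipients.

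Hk2 levels were also set beside the make-up of the libraries. The 10 most abundant genes took 68.3% of the counts in HD-CR5 and 67.0% in HD-CR4, where Hk2 was lowest, and 51.4% in HD-CR2, the highest Hk2 level of its group. CD-HR5 went the other way, with the highest share of all (68.6%) and Hk2 at 43.4 CPM. Over 23 libraries this share and log2 Hk2 had a Pearson r of -0.43 (permutation p = 0.0410, adjusted over 6 relations 0.246) and a Spearman rho of -0.45 (permutation p = 0.0331, adjusted 0.198). Without the 2 libraries with the most extreme shares (HD-CR2 and CD-CR1) r was -0.59 (permutation p = 0.00451, adjusted 0.0271). There rho was -0.55 and did not pass (permutation p = 0.0107, adjusted 0.0644). Within CKD recipients r was -0.47 (n = 11, permutation p = 0.113, adjusted 0.338) and within healthy recipients -0.21 (n = 12, permutation p = 0.528, adjusted 0.791). After the group means were subtracted r was -0.47 (permutation p = 0.0254, adjusted 0.0761). With the share as a covariate the averaged recipient comparison gave -0.54 for Hk2 and kept its call. These relations were computed after the levels had been seen.

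Slc2a4, the insulin-responsive transporter, did not pass the test in any of the 8 comparisons. Its libraries stood at 343.8, 255.4, 267.9, 263.8, 219.3 and 309.9 CPM in HD-HR and at 230.0, 268.4, 291.9, 228.0, 167.7 and 299.3 CPM in CD-HR. In HD-CR they stood at 254.3, 280.5, 213.5, 204.0 and 204.4 CPM, and in CD-CR at 145.5, 276.0, 280.7, 228.0, 262.4 and 154.6 CPM. The groups overlapped throughout. The 3 lowest libraries, CD-CR1, CD-CR6 and CD-HR5, all carried a CKD donor kidney, as did 12 of the 23 libraries. Of the 6 CD-CR libraries 4 lay between 228.0 and 280.7 CPM.

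By mean Slc2a4 level, CD-CR came lowest (224.5 ± 60.7 CPM, SD, n = 6), then HD-CR (231.3 ± 34.4, n = 5), CD-HR (247.5 ± 49.3, n = 6) and HD-HR (276.7 ± 43.8, n = 6), and no neighbours in this order differed by more than their SD. The averaged recipient comparison gave a log2 change of -0.20 ± 0.12 (95% interval -0.44 to 0.04, adjusted p = 0.265 by edgeR). The interval covers falls to 0.736-fold and rises to 1.03-fold. With 1013 to 3657 reads per library, counting alone gives a relative error of 3.14% at the lowest count. This is a lower limit, because PCR-amplified reads are counted. The spread between rats was larger. That spread, 20.4% in edgeR's fit, was larger than for 79.9% of the 144 genes within 0.5 log2 units of its level.

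Slc2a4 was set beside the reads that aligned to several places. CD-HR5 had the highest ratio of non-unique alignments to counted reads (log2 3.42) and the lowest Slc2a4 of the healthy recipients. Pearson's r between log2 Slc2a4 and this log2 ratio was -0.34 over 23 libraries (permutation p = 0.113, adjusted over 6 relations 0.279; Spearman rho -0.20, permutation p = 0.350, adjusted 0.422). It was -0.67 in the 12 healthy recipients (permutation p = 0.0216, adjusted 0.130) and -0.63 in the 11 CKD recipients (permutation p = 0.0357, adjusted 0.214). Over all libraries it rested on CD-HR5 and CD-CR2, without which r was -0.11 (permutation p = 0.635, adjusted 0.635). By prefix r was -0.71 in prefix 12 (n = 9, exact permutation p = 0.0268, adjusted 0.161) and -0.58 in prefix 13 (n = 14, permutation p = 0.0322, adjusted 0.0966). Spearman's rho was weaker in each of these subsets, and neither measure passed there after adjustment. It was -0.43 in healthy recipients, -0.55 in CKD recipients, -0.50 in prefix 12 and -0.29 in prefix 13 (adjusted permutation p = 0.530 to 0.913). After the group means were subtracted, r was -0.62 over all libraries and passed (permutation p = 0.00121, adjusted 0.00726), while rho was -0.50 (permutation p = 0.0165, adjusted 0.0992). The permutation treated these residuals as free values although group means had been fitted, so its p is somewhat too small. The residual r was not recomputed without CD-HR5 and CD-CR2. As for Hk2, these relations were computed after the levels had been seen. With the ratio as a covariate in the fit, the averaged recipient comparison of Slc2a4 passed at -0.41 ± 0.12 (adjusted p = 0.0315), the only setting tried that gave it a call.

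The recipient comparison was then taken with each kind of donor kidney. With a healthy donor kidney (HD-CR against HD-HR) 0 of the 3 genes were called, where 0.614% of all genes were. Hk2 was closest, at a log2 change of -0.77 ± 0.19 (95% interval -1.16 to -0.39, adjusted p = 0.0513 by edgeR). It passed by DESeq2 (adjusted p = 0.0102), by limma-voom (adjusted p = 0.0413), without CD-CR1 (adjusted p = 0.0416) and without HD-CR2 (-0.99, adjusted p = 0.0200). Within prefix 13 it was at -1.55, on HD-CR5 alone. Slc2a1 stood at 0.44 ± 0.15 (95% interval 0.15 to 0.74, adjusted p = 0.124) and Slc2a4 at -0.26 ± 0.17 (adjusted p = 0.429).

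With a CKD donor kidney (CD-CR against CD-HR) 0 of the 3 genes were called, where 1.56% of all genes were. Hk2 stood at -0.39 ± 0.18 (95% interval -0.75 to -0.03, adjusted p = 0.242 by edgeR), Slc2a1 at 0.22 ± 0.14 (adjusted p = 0.428) and Slc2a4 at -0.14 ± 0.16 (adjusted p = 0.683). Slc2a4 was at -0.04 without CD-CR1, -0.05 without CD-CR6 and -0.23 without CD-HR5. For each of the 3 genes the estimate had the same sign as with a healthy donor kidney and was smaller. With the prefix as a covariate Hk2 was at -0.82 and Slc2a1 at 0.10.

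Whether the recipient effect differed between donor kinds was tested by the interaction, in which 0 of the 3 genes were called and 0.00864% of all genes were. The log2 differences between the donor effects in CKD and in healthy recipients were 0.38 ± 0.25 for Hk2 (95% interval -0.14 to 0.90), -0.23 ± 0.20 for Slc2a1 (-0.64 to 0.18) and 0.12 ± 0.24 for Slc2a4 (-0.37 to 0.60). Each had an adjusted p of 1.0 by edgeR. The Hk2 value was 0.60 ± 0.22 without HD-CR2 and 0.24 ± 0.23 without HD-CR5, the Slc2a1 value -0.12 without CD-HR1, and that of Slc2a4 ran from 0.03 to 0.20 with 1 library left out; none of these passed. The intervals allow sizable differences in either direction for Slc2a4, and for Hk2 a fall that is smaller by up to 0.90 log2 units with a CKD donor kidney.

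**Figure D2:**
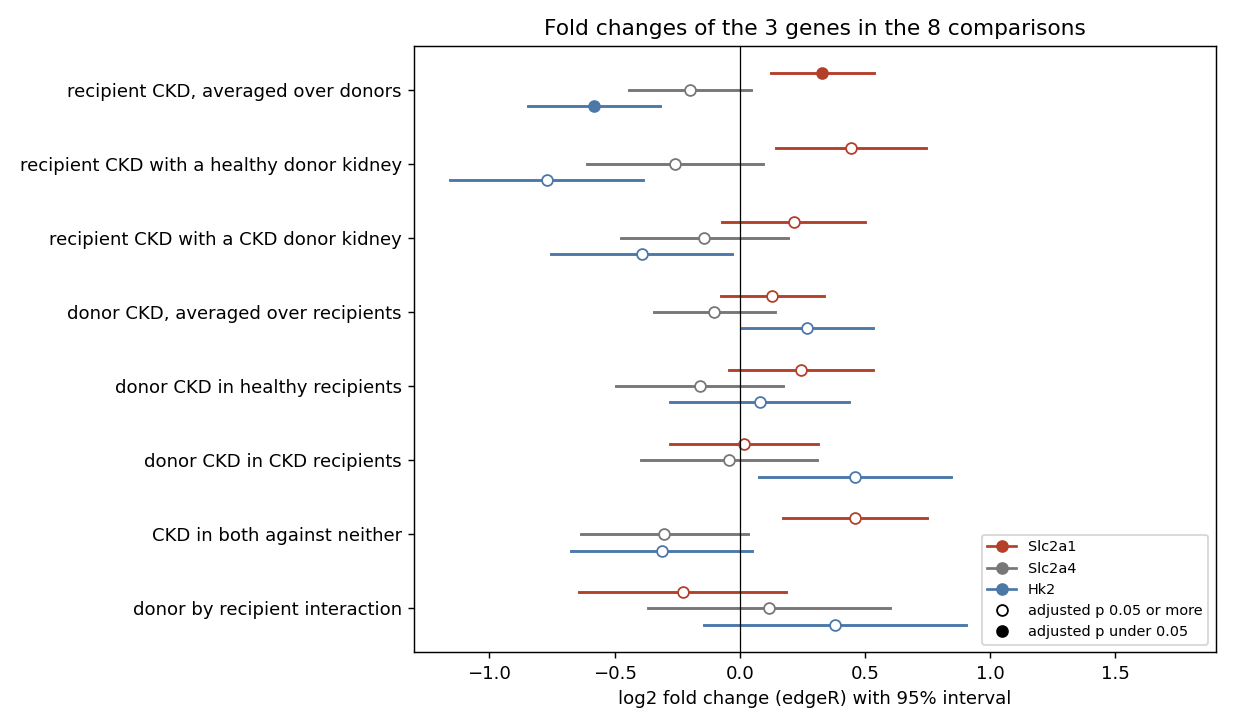
Log2 fold change of the 3 genes in the 8 comparisons by edgeR, with 95% intervals as lines and filled points where the adjusted p is under 0.05. Only Slc2a1 at 0.33 and Hk2 at -0.58 in the averaged recipient comparison are filled, and the Hk2 estimate with a healthy donor kidney (-0.77) lies just past the threshold.

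The disease of the donor kidney was examined next. In healthy recipients (CD-HR against HD-HR) 0% of genes were called, 7.6% had an unadjusted p under 0.05, and DESeq2 called 11 genes and limma-voom 0. None of the 3 genes was among any of these. Slc2a1 stood at 0.24 ± 0.14 (95% interval -0.04 to 0.53), Slc2a4 at -0.16 ± 0.16 (-0.49 to 0.17) and Hk2 at 0.08 ± 0.17 (-0.28 to 0.44) on the log2 scale. A rise of Slc2a1 by up to 1.45-fold lay within its interval. Single libraries moved these values: Slc2a1 was at 0.14 without CD-HR1, Slc2a4 at -0.07 without CD-HR5 and -0.09 without HD-HR1, and Hk2 ran from 0.01 to 0.14.

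In CKD recipients (CD-CR against HD-CR) 0 of the 3 genes were called, where 0.0259% of all genes were. Hk2 was higher with a CKD donor kidney by 0.46 ± 0.19 on the log2 scale (95% interval 0.08 to 0.84), which did not pass after adjustment (adjusted p = 0.519 by edgeR). Slc2a1 stood at 0.02 ± 0.14 (-0.28 to 0.31) and Slc2a4 at -0.04 ± 0.17 (-0.39 to 0.31). Averaged over recipients 0% of genes were called, 12.8% had an unadjusted p under 0.05, and DESeq2 called 226 genes and limma-voom 0. Hk2 was at 0.27 ± 0.13 (95% interval 0.01 to 0.53, adjusted p = 0.376), Slc2a1 at 0.13 ± 0.10 (adjusted p = 0.624) and Slc2a4 at -0.10 ± 0.12 (adjusted p = 0.766). Averaged in this way, Slc2a1 was at 0.08 without CD-HR1 and Slc2a4 at -0.05 without CD-CR1.

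Hearts with CKD in donor and recipient (CD-CR) were set against hearts with CKD in neither (HD-HR). None of the 3 genes was called, where 3.65% of all genes were. Slc2a1 was nearest, at 0.46 ± 0.14 on the log2 scale (1.38-fold, 95% interval 1.13 to 1.68, adjusted p = 0.0623 by edgeR). It passed by DESeq2 (adjusted p = 0.0324), with the replicate number as a block (adjusted p = 0.0480), with the top-gene share as a covariate (adjusted p = 0.0438), without HD-HR6 (0.56, adjusted p = 0.0247) and without CD-CR4 (0.53, adjusted p = 0.0246). It was at 0.34 ± 0.21 in the fit that included the prefix (adjusted p = 0.510 by edgeR). Among prefix 13 alone, where CD-CR had 1 library, it was at 0.45 and did not pass. Slc2a4 stood at -0.30 ± 0.16 (adjusted p = 0.324), or -0.19 without CD-CR1, and Hk2 at -0.31 ± 0.18 (adjusted p = 0.344), or -0.74 ± 0.25 with the prefix as a covariate (adjusted p = 0.287). Slc2a4 was at -0.06 among prefix 13 alone and at -0.48 with non-unique alignments as a covariate. This comparison shares its libraries with those above.

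Ratios of counts within a library do not depend on the scaling between libraries. They compare groups and not the abundance of the genes, because counts are not per length. The log2 ratio of Slc2a1 to Hk2 counts spanned -2.14 to -1.61 among HD-HR libraries and -2.12 to -1.17 among those of CD-HR. It spanned -1.15 to -0.01 among HD-CR libraries and -1.47 to -0.82 among those of CD-CR. With a healthy donor kidney the ratio did not overlap between the recipient kinds. How many other pairs of genes separate in groups of this size was not computed. These groups also differ in prefix: all 6 HD-HR libraries carry 13 and 4 of the 5 HD-CR libraries carry 12. With a CKD donor kidney it overlapped through CD-HR1 and CD-HR2 on one side and CD-CR3 and CD-CR4 on the other. The difference between CKD and healthy recipients, averaged over the donor kinds, was 0.96, at an SD within groups of 0.36. Among libraries of prefix 13 it was 1.28, which rests on 2 CKD recipients. One of them, HD-CR5, had the highest ratio of all libraries (-0.01).

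The log2 ratio of Slc2a1 to Slc2a4 counts was lowest in HD-HR (-4.68 ± 0.15, SD, n = 6), followed by CD-HR (-4.26 ± 0.43, n = 6), HD-CR (-3.96 ± 0.22, n = 5) and CD-CR (-3.87 ± 0.56, n = 6). HD-HR ran from -4.85 to -4.44 and lay wholly below HD-CR, which ran from -4.21 to -3.66. Here too it was not computed how many other pairs of genes separate. CD-HR spread from -4.79 to -3.73 across both. CD-CR6 (-3.15) and CD-CR1 (-3.18) had the highest ratios, with Slc2a4 at 154.6 and 145.5 CPM. The donor-averaged difference between CKD and healthy recipients was 0.55, with an SD within groups of 0.38. Among libraries of prefix 13, with 2 CKD recipients, it was 0.39. These ratios combine genes whose separate results are given above and are described without a test.

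**Figure D3:**
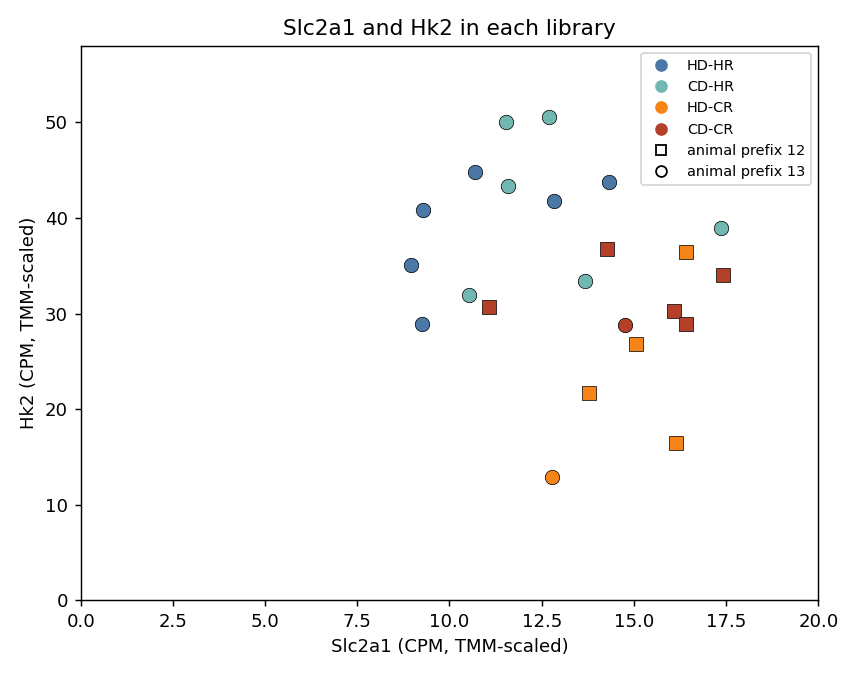
Slc2a1 (horizontal axis) against Hk2 (vertical axis), both in CPM from 0, in each of the 23 libraries, coloured by group, with squares for animal prefix 12 and circles for prefix 13. CKD recipients lie towards the lower right: all 11 are at or under 36.7 CPM of Hk2. Of these, 10 are above 11.6 CPM of Slc2a1, the median of healthy recipients. The healthy recipient CD-HR2 also lies within these limits (13.7 CPM of Slc2a1, 33.4 of Hk2).

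From rat to rat the 3 genes showed no detectable common movement. Over 23 libraries the Pearson correlation of log2 CPM was -0.22 between Slc2a1 and Hk2 (permutation p = 0.326; Spearman rho -0.27, permutation p = 0.220), -0.24 between Slc2a1 and Slc2a4 (permutation p = 0.280; rho -0.17, permutation p = 0.438) and 0.28 between Slc2a4 and Hk2 (permutation p = 0.202; rho 0.36, permutation p = 0.0932). Adjusted over the 3 pairs, r had p = 0.326 in each of these permutation tests and rho had p = 0.280 to 0.438. Without the 2 libraries farthest on the first gene of the pair, r was -0.27, -0.28 and 0.36. Within healthy recipients r between Slc2a1 and Hk2 was 0.31 (n = 12) and within CKD recipients 0.27 (n = 11), so the negative sign over all libraries did not hold within either kind of recipient. Within prefix 12 it was 0.00 (n = 9) and within prefix 13 -0.03 (n = 14).

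The gene most like each member over the 23 libraries, by Pearson correlation of log2 CPM, was another gene in each case. It was ENSRNOG00000018390 for Slc2a1 (r = 0.86), ENSRNOG00000043201 for Slc2a4 (r = 0.92) and ENSRNOG00000012947 for Hk2 (r = 0.92). After the group means were subtracted these were 0.83, 0.92 and 0.85. Correlations over 0.8 were reached by 2 genes with Slc2a1, 83 with Slc2a4 and 157 with Hk2. The libraries share depth and composition, and the genes were picked as the highest, so these values are a description.

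**Figure D4:**
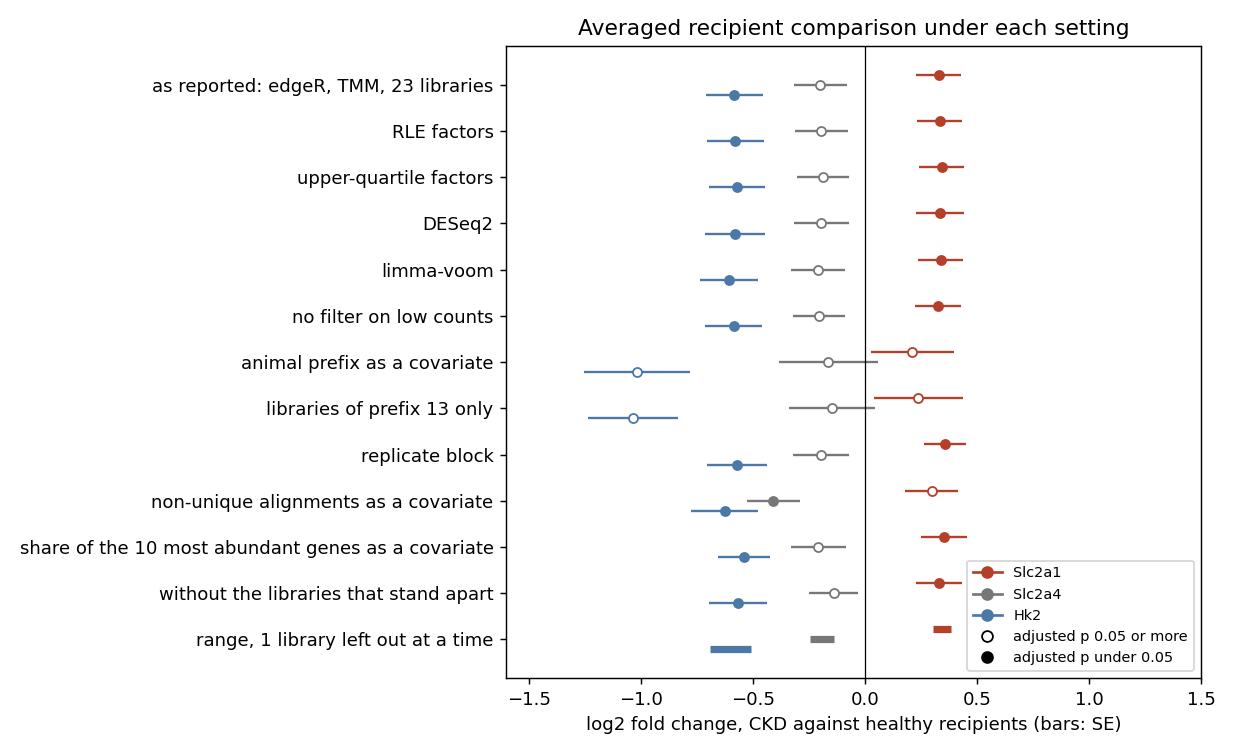
Log2 fold change between CKD and healthy recipients, averaged over donors, for the 3 genes under each alternative setting, with bars for the SE and filled points where the adjusted p is under 0.05. The bottom row spans the fits that left out 1 library. In the row for prefix 13, HD-CR and CD-CR have 1 library each, so its bars reflect the spread of healthy recipients. Hk2 moves from -0.58 to -1.02 with the animal prefix as a covariate, Slc2a1 from 0.33 to 0.21, and Slc2a4 is filled only with non-unique alignments as a covariate (-0.41).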

How the data were processed

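RNA-seq of the heart apex gave 1 file of read counts per gene and library. The authors used STAR 2.4.2a, Picard and HTSeq 0.6.1p1 with build Rnor_5.0, per the submitters' processing notes, and a directional kit, per the labels' protocols. The deposited counts are not normalized. The sources used here do not state annotation release, strand setting or duplicate removal. The 5 summary lines of each file were left out. Reads in no feature were 10.6 to 21.5% of those in genes, in no feature or ambiguous, with non-unique alignments not included. Groups and replicate numbers came from titles. No pair within a group agreed within sampling noise (lowest chi-square per degree of freedom 8.38).

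Counts of all genes were filtered (filterByExpr), scaled by TMM and tested in 1 fit of the 4 groups with edgeR 4.0.16 in R 4.3.3 (glmQLFit, robust), with Benjamini-Hochberg adjustment over 11568 genes. The code was tested on simulated data. SE is the log2 change over the root of F. Log2 CPM used a prior count of 2, and permutation tests (two-sided) 100000 resamples, or all orders under 10 libraries. Alternatives were other scalings, DESeq2 1.42.0, limma-voom 3.58.1, no filter, covariates and left-out libraries. Members, lists and the rule for likeness were chosen with earlier results of these data known; the rule named the gene with the highest correlation per member. Counts cover PCR-amplified reads, so counting errors are lower limits.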

Additional observations from a re-analysis of the deposited data

How the results depend on the processing

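Direction and call of Hk2 and Slc2a1 in the averaged recipient comparison were kept with both other scalings, DESeq2, limma-voom, no filter, the replicate block, a covariate for the 10 most abundant genes and without CD-CR1, the library that stood apart. With the prefix as a covariate Hk2 was at -1.02 and Slc2a1 at 0.21, among prefix 13 alone -1.03 and 0.24, and neither passed. With non-unique alignments Slc2a1 did not pass (0.30), while Slc2a4 did (-0.41). With 1 library left out Slc2a1 ran from 0.30 to 0.38.

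With a healthy donor kidney the recipient change of Hk2 passed by DESeq2 (-0.77), limma-voom (-0.84), with the top-gene covariate (-0.74) and without CD-CR1 (-0.75). It ran from -0.99 to -0.63 with 1 library of its groups left out. Slc2a1 in CD-CR against HD-HR passed by DESeq2 (0.46), with the replicate block (0.47) and with the top-gene covariate (0.49), and ran from 0.41 to 0.56. Some near-zero values changed sign. In CKD recipients the donor change of Slc2a1 was -0.0070 with upper-quartile factors, -0.035 among prefix 12, -0.028 with the replicate block and -0.013 without CD-CR1, with a range of -0.031 to 0.089 on leaving out 1 library. That of Slc2a4 was 0.046 without CD-CR1 (range -0.12 to 0.046). With a CKD donor kidney the recipient change of Slc2a4 was 0.093 among prefix 13, where 1 library stands for CD-CR and is assumed to vary like the other groups.

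Correlations also changed sign. For Slc2a1 and Slc2a4 r was 0.091 in healthy recipients, 0.055 in prefix 13 and 0.045 on residuals. For Slc2a1 and Hk2 it was 0.31, 0.27, 0.0042 and 0.28 (healthy recipients, CKD recipients, prefix 12, residuals), and for Slc2a4 and Hk2 -0.061 in healthy recipients. The cause was not tested.

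Same-numbered libraries had a median r of -0.043 over 33 pairs, 12 of them over 0.1. Pairs of other numbers had a median r of -0.017 over 165 pairs, 42 of them over 0.1. Of 23 libraries 6 correlated best with their own number. Expression alone cannot show whether the numbers pair the rats, so this is left undecided. The replicate block changed no call other than that of Slc2a1 above; it called 1336 genes where 1483 were called without it. Over all genes the averaged recipient comparison called 6 with the prefix covariate, 0 in prefix 13 alone and 1041 with non-unique alignments. Recipient calls numbered 71 with a healthy donor kidney (3 to 306 over all alternatives) and 181 with a CKD donor kidney (0 to 449). CD-CR against HD-HR called 422 (0 to 651), donor CKD in CKD recipients 3 (2 to 36), averaged 0 (0 to 226), and the interaction 1 (0 to 2). Depth limits Slc2a1 most (70 to 199 reads).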
